A study of Homo sapiens with 4 samples.

Results

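The Cd209 genes are a family of mouse C-type lectin receptors, and 5 of them, Cd209a, Cd209b, Cd209d, Cd209f and Cd209g, were followed through 4 xenograft tumours. They were taken by gene symbol, and all 5 were found once in each of the 4 expression tables among 23698 loci. All 5 members had their highest value in the tumour of caspase-3 efficient cells under docetaxel. Their summed level was 107 FPKM there (fragments scaled to transcript length and to the mapped fragments of the library), against 11.2 FPKM in the tumour of caspase-3 inhibited cells under docetaxel, 19.7 FPKM in the untreated inhibited tumour and 17.1 FPKM in the untreated efficient tumour. Cd209f carried the largest part of that sum in every library. The library of the efficient tumour under docetaxel was also the deepest and had the most loci above 0, 2776. What share of all loci had their highest value in it was not counted. Each condition was 1 library, so no difference below carries a p-value or speaks for other animals.

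CD209, also called DC-SIGN, is a transmembrane receptor whose extracellular lectin domain binds mannose- and fucose-bearing glycans on microbes and on host glycoproteins. In humans it is best known on dendritic cells and some tissue macrophages, where it takes up antigen and changes the cytokine response to other receptors. The mouse has a cluster of several related genes in place of the human pair. Cd209a is the member usually called mouse DC-SIGN and is found on dendritic cells and monocyte-derived cells, Cd209b encodes SIGNR1 of marginal zone and lymph node macrophages, which captures blood-borne polysaccharides, and Cd209d encodes SIGNR3, which recognises mycobacterial glycans. Cd209f and Cd209g are less studied relatives whose transcripts mark resident macrophages around vessels and in connective tissue of the mouse.

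The tumours grew under the skin of Balb/c nude mice, a strain without a thymus that lacks most T cells and keeps its myeloid cells, from MDA-MB-231, a human cell line of triple-negative breast carcinoma. The docetaxel inhibited tumour came from MDA-MB-231 cells that had been kept in culture with Z-DEVD-FMK, which inhibits caspase-3, in a mouse that was given docetaxel, a taxane that stabilises microtubules, at 15 mg/kg when the tumour was at 12 mm². The docetaxel efficient tumour came from cells without the inhibitor and the same docetaxel treatment. The untreated inhibited and untreated efficient tumours came from the corresponding cells with no docetaxel. The inhibitor was applied to the grafted cells in culture, so the labels record no inhibition in the mouse cells that would carry Cd209 transcripts. How long the inhibition lasted in the tumours, and how long after docetaxel they were taken, the labels do not say.

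The libraries were mapped to the mouse genome (mm9), and no step recorded in the labels separates human from mouse reads, so human reads that fit mouse sequence are counted with those of the host. Between 1842 and 2776 of the 23698 loci were above 0 in a library. Relative to the untreated efficient library, depth was 0.667 in the docetaxel inhibited, 1.34 in the docetaxel efficient and 0.891 in the untreated inhibited library, as read from the deposited bounds. Values were unevenly spread along the genome. Of the 35 other loci within 1 Mb of the Cd209 cluster, 18 (51.4%) had a value in 3 or more libraries, against 74 of 1060 (6.98%) on the rest of chromosome 8. The cluster thus lay in a stretch where a larger share of loci had values than on the rest of its chromosome. Many marker genes named below were listed at 0, and the share of loci with values around them was not counted. No level was read from a single listed 0, but means, sums, medians, calls and profile distances take it as 0.

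In mm9 the members lay on chromosome 8 between 3743395 and 4137707, a span of 394 kb, in the order Cd209a, Cd209d, Cd209b, Cd209f and Cd209g. Cd209a was annotated at 3743395 to 3748984, Cd209d at 3871824 to 3878499 and Cd209b at 3917657 to 3926814. Cd209f was annotated at 4102793 to 4105764 and Cd209g at 4134736 to 4137707, 29.0 kb apart and both spanning 2972 bp. The tables hold a further pair of family loci inside the cluster, Cd209e and Cd209c, and both were listed at 0 in all 4 libraries. The members are close relatives, and the labels do not say how reads matching several of them were divided, so the split between members is uncertain.

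**Figure D1:**
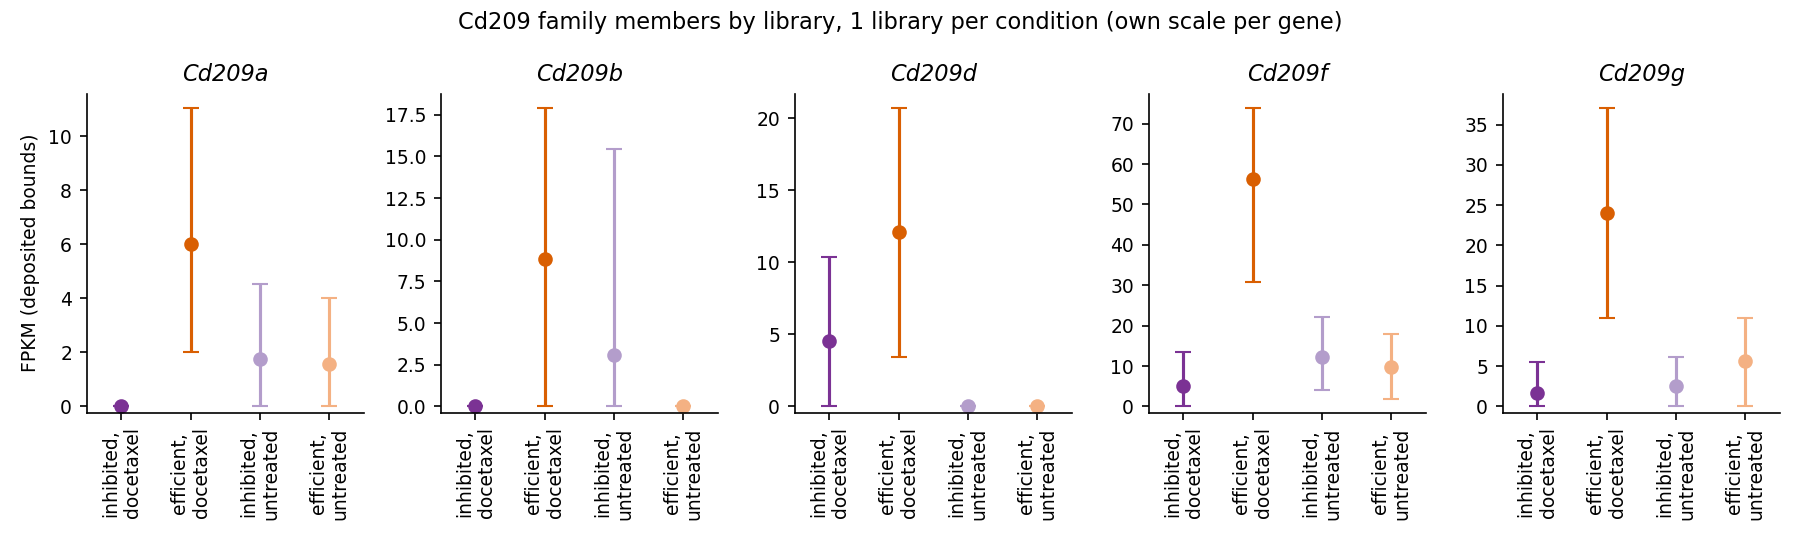
FPKM of each Cd209 member (y axis, own scale per gene) in each of the 4 libraries (x axis), with points for the deposited value and bars for the deposited bounds. In every panel the docetaxel efficient library is highest, from 6.02 FPKM for Cd209a to 56.2 FPKM for Cd209f.

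Cd209f was the most abundant member, with a mean of 20.9 FPKM over the 4 libraries. It was at 4.94 FPKM (deposited bounds 0 to 13.5) in the docetaxel inhibited library, 56.2 (30.8 to 73.8) in the docetaxel efficient, 12.3 (4.03 to 22.2) in the untreated inhibited and 9.89 (1.80 to 18.0) in the untreated efficient library. The docetaxel efficient library stood above the other 3, with bounds that met none of theirs, while those 3 overlapped each other. Among the loci above 0, Cd209f ranked 76 of 2776 in the docetaxel efficient library and 556 of 1842 in the docetaxel inhibited library. It ranked 218 of 2000 in the untreated inhibited library and 286 of 2255 in the untreated efficient library.

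Cd209g, the neighbour of Cd209f, followed at a lower level. It was at 1.69 FPKM (0 to 5.51) in the docetaxel inhibited, 24.0 (11.0 to 37.0) in the docetaxel efficient, 2.53 (0 to 6.18) in the untreated inhibited and 5.64 (0 to 11.0) in the untreated efficient library. Its docetaxel efficient bounds were clear of both inhibited libraries and touched those of the untreated efficient library, since 10.967 at the lower end lies just under 11.0141 at the upper end. Cd209f and Cd209g together made up 59.5% of the family sum in the docetaxel inhibited, 74.8% in the docetaxel efficient, 75.5% in the untreated inhibited and 90.9% in the untreated efficient library.

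The macrophage receptor genes Cd209d and Cd209b had values in 2 libraries each. Cd209d was at 4.52 FPKM (0 to 10.4) in the docetaxel inhibited and 12.1 (3.45 to 20.7) in the docetaxel efficient library, and was listed at 0 in both untreated libraries. It was the one member with a value in both docetaxel libraries and in neither untreated one. Cd209b was at 8.84 FPKM (0 to 17.9) in the docetaxel efficient and 3.09 (0 to 15.4) in the untreated inhibited library, and was listed at 0 in the other 2. Its bounds reached 0 in each library, so it separated none of them.

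Cd209a, the dendritic cell receptor gene, was the lowest member by its mean of 2.33 FPKM over the libraries. It was listed at 0 in the docetaxel inhibited library, and was at 6.02 FPKM (2.00 to 11.0) in the docetaxel efficient, 1.75 (0 to 4.52) in the untreated inhibited and 1.55 (0 to 4.03) in the untreated efficient library. The docetaxel efficient value was the highest, with bounds that overlapped both untreated libraries.

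The order of levels was clearest in the docetaxel efficient library, where Cd209f was followed by Cd209g, Cd209d, Cd209b and Cd209a. FPKM is per length of transcript, so members can be set against each other on this scale. There Cd209f exceeded Cd209g by 32.2 FPKM (interval 10.4 to 54.0, combined from the upper arms of both deposited bounds). Of the other neighbours in that order, none differed beyond the combined interval, the widest gap being 11.9 FPKM (-3.64 to 27.5) between Cd209g and Cd209d. In the remaining 3 libraries Cd209f also came first, but no neighbours in the order differed beyond their interval. Cd209f exceeded the next member by 0.420 FPKM (-9.93 to 10.8) in the docetaxel inhibited, 9.25 (-6.54 to 25.0) in the untreated inhibited and 4.25 (-5.45 to 13.9) in the untreated efficient library.

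The numbers of fragments behind these values were small. For 4 of the 5 members the deposited bounds were whole multiples (within 0.001) of a single step that scaled with library depth, and this step was taken as the worth of 1 fragment. For Cd209f it was 2.69 FPKM in the docetaxel inhibited, 1.34 in the docetaxel efficient, 2.02 in the untreated inhibited and 1.80 in the untreated efficient library. On this reading Cd209f rested on about 1.84 fragments in the docetaxel inhibited, 41.9 in the docetaxel efficient, 6.12 in the untreated inhibited and 5.51 in the untreated efficient library. Cd209g rested on about 0.615 fragments in the docetaxel inhibited, 17.5 in the docetaxel efficient, 1.23 in the untreated inhibited and 3.07 in the untreated efficient library.

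Cd209a and Cd209d were thinner still. Cd209a rested on about 6.01 fragments in the docetaxel efficient library and 1.16 in each untreated library, and Cd209d on about 1.31 in the docetaxel inhibited and 7.03 in the docetaxel efficient library. Over these 4 members the total was 3.76 fragments in the docetaxel inhibited, 72.5 in the docetaxel efficient, 8.51 in the untreated inhibited and 9.74 in the untreated efficient library. The numbers are not all whole, and the labels do not say how fragments were weighted. Bounds of Cd209b, which has more than 1 annotated start site, gave no common step.

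**Figure D2:**
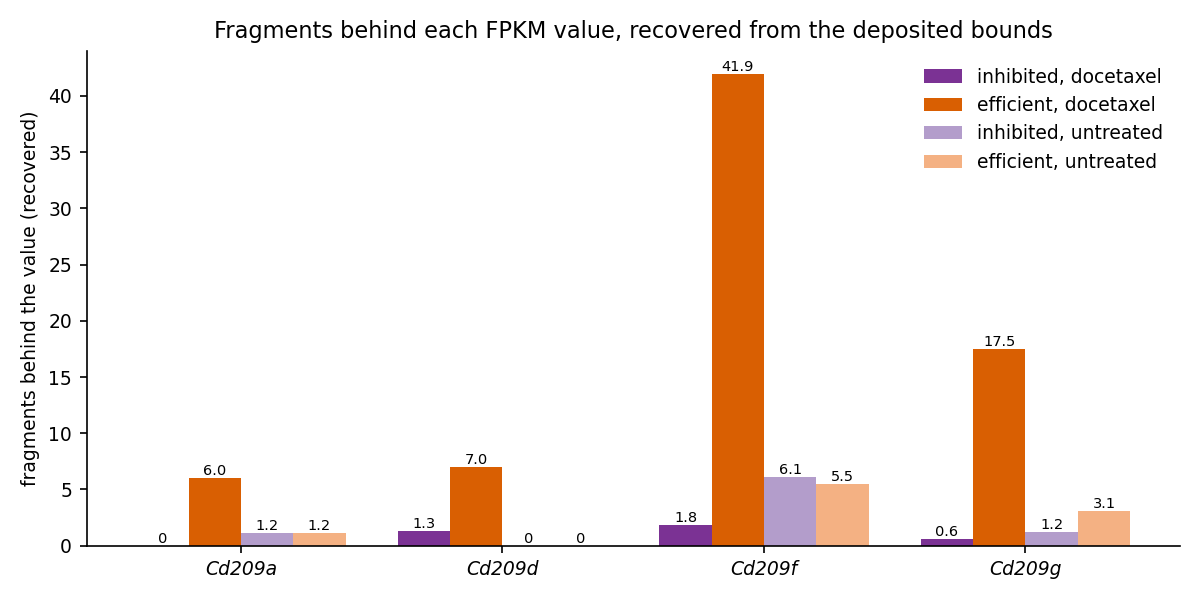
Fragments behind each value (y axis) for the 4 members whose step could be read (x axis), with 1 bar per library and the number above it; a 0 marks a listed 0. Cd209f in the docetaxel efficient library rests on 41.9 fragments, and no bar outside that library exceeds 6.12.

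The first comparison asked how docetaxel and untreated tumours differed where the cells were caspase-3 efficient. Cd209f and Cd209d were higher with docetaxel, and no member was lower. A locus was called when log2(FPKM + 1) differed by at least 1, the deposited bounds, read as 95% intervals, were separate, both libraries had the status OK, and at least 1 of them reached 5 FPKM. By this rule 2 of 5 members compared were called higher, where 54 of 667 loci in all (8.1%) were. Of these calls 1 of the 2 members and 20 of the 54 loci were set against a listed 0. For that member, Cd209d, the listed 0 has bounds of 0 to 0 and so carries no counting error in the rule. None of the 5 was called lower, against 0.9% of loci. Cd209a, Cd209b and Cd209d reached 5 FPKM with docetaxel alone, so they could be called only as higher. The counts of members are therefore no like measure to the shares of all loci.

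Cd209f was at 56.2 FPKM with docetaxel and 9.89 FPKM without, 5.69-fold higher, a difference of 46.3 FPKM (27.0 to 65.6) and of 2.39 on the log2(FPKM + 1) scale, which understates changes of low genes. This interval uses the upper arm of the deposited docetaxel bounds of Cd209f (30.8 to 73.8), which is shorter than the lower arm. With the lower arm the interval would be wider. Cd209d was at 12.1 FPKM with docetaxel and was listed at 0 without, so the size of its difference is not known. Cd209g was at 24.0 against 5.64 FPKM, a difference of 18.4 FPKM (4.34 to 32.4), and missed the rule because its bounds touched. Cd209a was at 6.02 against 1.55 FPKM, a difference of 4.47 (-1.11 to 10.0), and Cd209b at 8.84 FPKM against a listed 0. All 5 values thus lay above those of the untreated library, 2 of them by the rule. The members' median log2 difference was 2.39, beside 0.34 over all loci compared. Cd209a, Cd209b and Cd209d reached 5 FPKM with docetaxel alone, so they could enter this median only as higher. It is therefore no like measure to that of all loci. With each library scaled to the median of well-measured loci, Cd209f differed by 2.15 and 2 members were again called.

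Docetaxel was then set against no treatment where the cells were caspase-3 inhibited. No member was called in either direction, and 1 of the 5, Cd209f, reached the 5 FPKM needed to be compared. It did so in the untreated library alone, so it could be called only as lower. Of 630 loci, 3.81% were called higher and 1.75% lower. Cd209f was at 4.94 FPKM with docetaxel and 12.3 FPKM without, a difference of -7.39 FPKM (-20.4 to 5.63). Its log2(FPKM + 1) difference was -1.17, beside a median of 0.37 over all loci compared. Cd209g was at 1.69 against 2.53 FPKM, a difference of -0.841 (-6.12 to 4.44). Cd209a and Cd209b were listed at 0 with docetaxel and were at 1.75 and 3.09 FPKM without, while Cd209d was at 4.52 FPKM with docetaxel and listed at 0 without. Both intervals include 0, so a difference was not detectable at this depth.

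Caspase-3 inhibition was compared next in untreated tumours. No member was called, with 2 of 5 compared and background shares of 2.51% higher and 3.35% lower among 597 loci. Of those compared, Cd209g reached 5 FPKM in the efficient library alone, so it could be called only as lower. Cd209f was at 12.3 FPKM in the inhibited and 9.89 FPKM in the efficient library, a difference of 2.45 FPKM (-10.3 to 15.2). Cd209g was at 2.53 against 5.64 FPKM, a difference of -3.11 (-9.60 to 3.38). Cd209a was at 1.75 against 1.55 FPKM, which is about 1.16 fragments in both libraries.

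Under docetaxel the inhibited and the efficient library stood furthest apart. Cd209f, Cd209g and Cd209a were called lower in the inhibited library, 3 of 5 members compared, where 65 of 701 loci (9.27%) were. Of these, 1 of the 3 members and 35 of the 65 loci were listed at 0 in the inhibited library. No member was called higher, against 3.99% of loci. Cd209f was at 4.94 FPKM in the inhibited and 56.2 FPKM in the efficient library, a ratio of 0.0879 and a difference of -51.3 FPKM (-70.8 to -31.8). Cd209g was at 1.69 against 24.0 FPKM, a ratio of 0.0704 and a difference of -22.3 (-35.9 to -8.80). Both ratios have fewer than 2 fragments above the line.

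Cd209a was listed at 0 in the inhibited library and was at 6.02 FPKM in the efficient one, which gives no ratio. Its listed 0 has bounds of 0 to 0, so the call treats that 0 as free of counting error. For Cd209a 1 fragment was worth 2.01 FPKM in the inhibited library, and the lower bound in the efficient library was 2.00 FPKM. Cd209d was at 4.52 against 12.1 FPKM, a difference of -7.60 (-18.0 to 2.78), and Cd209b was listed at 0 against 8.84 FPKM (0 to 17.9). The docetaxel efficient library enters both this comparison and the first, so its high members count in both. The members' median log2 difference was -3.22, beside -0.05 over all loci compared. All 5 members reached 5 FPKM in the efficient library alone, so each could enter this median, or be called, only as lower. The median is therefore no like measure to that of all loci.

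**Figure D3:**
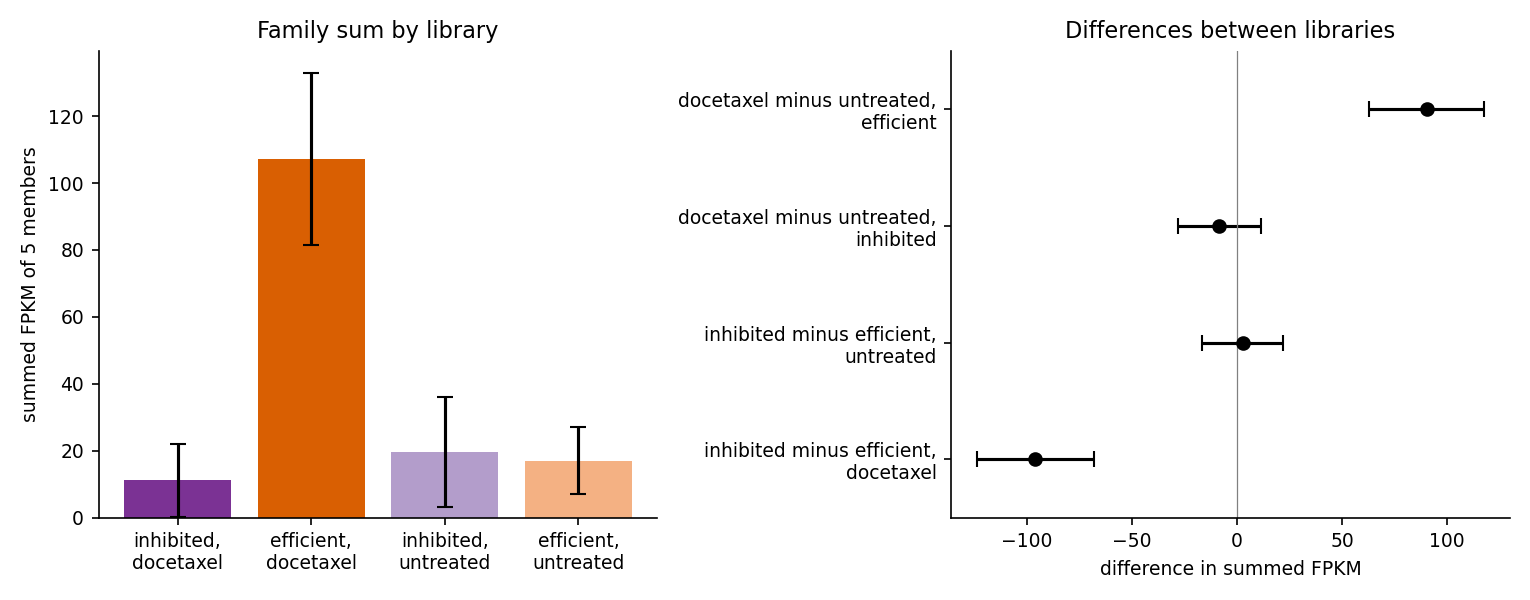
Left, summed FPKM of the 5 members (bars, y axis) per library (x axis), with the interval combined from the upper arms of the members' deposited bounds. Right, differences in summed FPKM (x axis) for each comparison (y axis), as points with the combined interval. The docetaxel efficient sum of 107 FPKM stands above the other sums of 11.2 to 19.7 FPKM, and the 2 comparisons that use it are the ones whose interval does not reach 0.

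The family was also read as a sum, which depends less on how reads were divided among members but still changes with it, since 1 fragment was worth between 1.00 FPKM (Cd209a) and 1.72 FPKM (Cd209d) in the docetaxel efficient library. Reads given to Cd209c or Cd209e would not be in it. The sum was 11.2 FPKM (interval 0.131 to 22.2) in the docetaxel inhibited, 107 (81.6 to 133) in the docetaxel efficient, 19.7 (3.26 to 36.1) in the untreated inhibited and 17.1 (7.08 to 27.1) in the untreated efficient library, with listed zeros added as 0. The 3 lower sums overlapped each other, and none reached the docetaxel efficient one. Docetaxel minus untreated was 90.2 FPKM (62.7 to 118) in efficient tumours, a 6.28-fold ratio, and -8.54 FPKM (-28.3 to 11.3) in inhibited tumours. Inhibited minus efficient was 2.62 FPKM (-16.6 to 21.9) in untreated tumours and -96.1 FPKM (-124 to -68.2) under docetaxel. Without Cd209f the docetaxel efficient sum was still the highest, with 6.22 FPKM in the docetaxel inhibited, 51.0 in the docetaxel efficient, 7.37 in the untreated inhibited and 7.20 in the untreated efficient library. In bulk tumour RNA, fewer cells of a type and less RNA per cell cannot be told apart.

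The neighbourhood of the cluster was examined because the members share it. Of the 35 other loci within 1 Mb, 14 could be compared for docetaxel in efficient tumours, with 3 called higher and 0 lower, and a median log2 difference of 0.29. Over all loci compared, 8.1% were called higher and 0.9% lower, with a median of 0.34. The 3 neighbours called were Retn, the adipocyte hormone resistin of mice, Pex11c, a peroxisome gene, and 2400009B08Rik. Retn ends 83.6 kb before Cd209a and was listed at 0 in both inhibited libraries, with 417 FPKM in the docetaxel efficient and 10.5 FPKM in the untreated efficient library. Pex11c was at 13.6 FPKM and 2400009B08Rik at 62.5 FPKM in the docetaxel efficient library, and both were listed at 0 in the other 3. Those zeros have bounds of 0 to 0 and so carry no counting error in the rule. Inhibited against efficient under docetaxel, these 3 neighbours and Snapc2, a subunit of a small nuclear RNA transcription complex, were called lower among 15 compared. Over all loci 9.27% were. Snapc2 was listed at 0 in the inhibited library, against 5.88 FPKM in the efficient one. All of these calls were set against listed zeros with bounds of 0 to 0. In the remaining pair of comparisons no neighbour was called among 11 compared in each, where 1.75% to 3.81% of all loci were in a given direction.

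**Figure D4:**
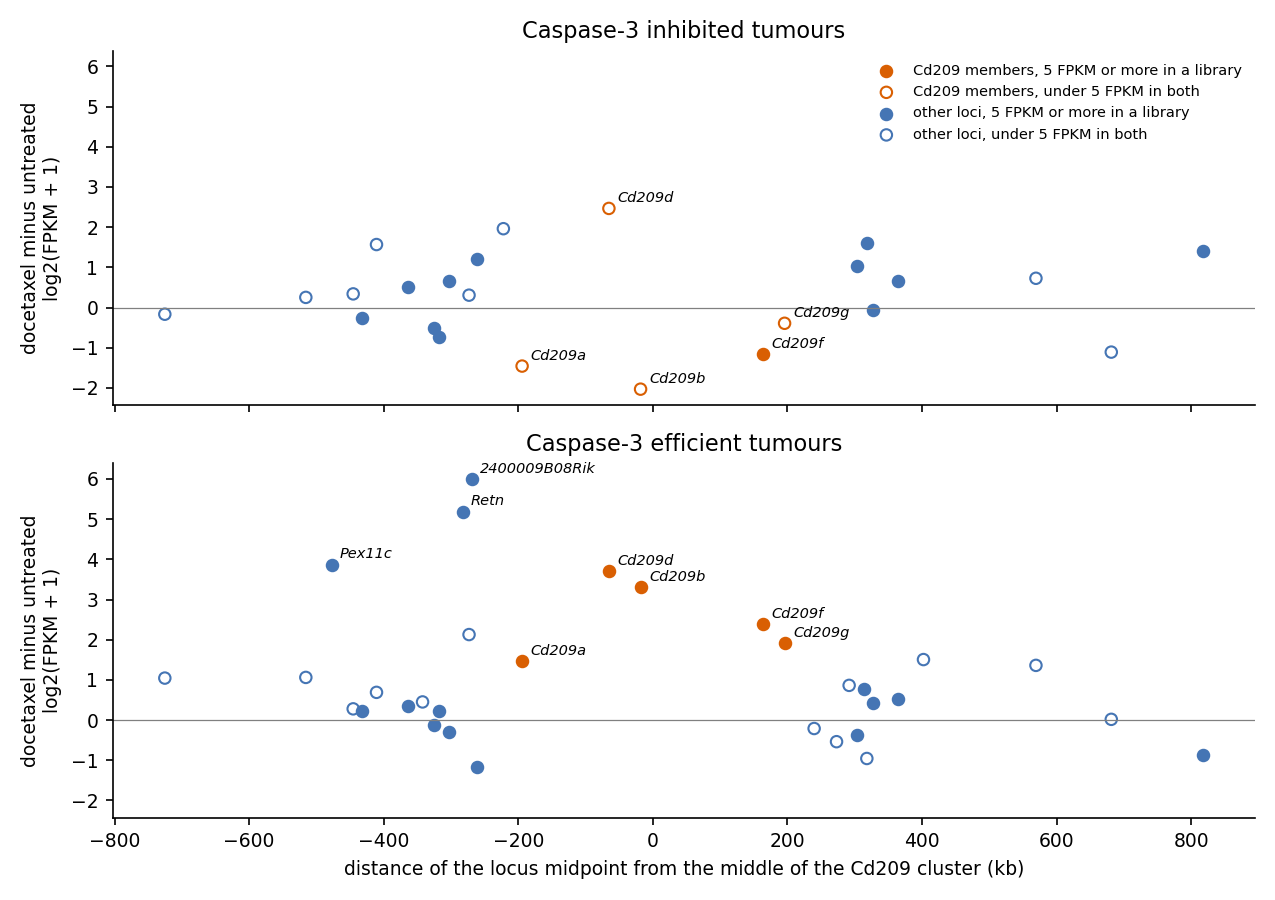
Docetaxel minus untreated difference in log2(FPKM + 1) (y axis) for loci within 1 Mb of the Cd209 cluster that were above 0 in at least 1 of the libraries shown, by distance of the locus midpoint from the middle of the cluster in kb (x axis); above inhibited, below efficient tumours. In efficient tumours all 5 members lie above 0 together with Retn, Pex11c and 2400009B08Rik. The 14 other loci compared, these 3 among them, have a median of 0.29. Cd209a, Cd209b and Cd209d reached 5 FPKM with docetaxel alone, so they could be compared only as higher. Open points were under 5 FPKM in both libraries, and several of other loci also lie above 0 in efficient tumours.

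The label of a myeloid family could hardly be checked against other myeloid genes. Of 20 macrophage markers 3 were above 0 in any library, Mpeg1, Mrc1 and Cd163, and none reached 5 FPKM. The defining genes Csf1r, Cd68, Emr1, Cd14 and Lyz2 were listed at 0 in all 4 libraries. The summed macrophage list was 2.03 FPKM in the docetaxel inhibited, 3.92 in the docetaxel efficient, 2.60 in the untreated inhibited and 3.76 in the untreated efficient library, so it did not separate the docetaxel efficient library from the untreated efficient one. Mpeg1, a pore-forming protein of macrophages, was at 1.45 FPKM (0 to 3.45) in the docetaxel inhibited, 2.91 (1.03 to 4.46) in the docetaxel efficient, 2.16 (0.516 to 4.13) in the untreated inhibited and 3.37 (0.919 to 5.51) in the untreated efficient library, all overlapping.

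Of 20 dendritic cell markers 2 were above 0, H2-Eb1 and Zbtb46, with sums of 4.64 FPKM in the docetaxel inhibited, 4.07 in the docetaxel efficient, 4.27 in the untreated inhibited and 1.89 in the untreated efficient library. Itgax, Flt3 and Cd74 were listed at 0 throughout. The monocyte and neutrophil list had Ly6c1 alone above 0, at 9.22 FPKM (0 to 29.3) in the docetaxel efficient and 10.9 (0 to 36.8) in the untreated inhibited library. No macrophage or dendritic cell marker reached 5 FPKM, so none could be called, and Ly6c1, the one marker of these lists that could be compared, was not called. Whether the members' values follow a number of myeloid cells was not tested.

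Among 31 genes listed as other lectin receptors of myeloid cells, 7 were above 0 in any library and 3 reached 5 FPKM. Which cells of these tumours carried their transcripts was not tested. Clec4d, a receptor of neutrophils and macrophages for mycobacterial glycolipid, was at 2.64 FPKM (0 to 10.6) in the docetaxel inhibited, 6.85 (1.37 to 13.7) in the docetaxel efficient and 3.95 (0 to 9.89) in the untreated inhibited library, and was listed at 0 in the untreated efficient one. It was called higher with docetaxel in efficient tumours, against that listed 0. Colec12, a scavenger receptor with a collagen-like stalk, was at 32.6 FPKM (21.6 to 43.2) in the docetaxel inhibited, 43.1 (33.1 to 52.8) in the docetaxel efficient, 14.3 (8.08 to 20.2) in the untreated inhibited and 24.3 (16.2 to 31.8) in the untreated efficient library. It was called higher with docetaxel in inhibited tumours. No Cd209 member was called there, but Cd209f was the one member that reached the 5 FPKM needed to be compared. Clec12b, an inhibitory lectin receptor gene, was at 4.53 FPKM (0 to 15.7) in the docetaxel inhibited, 2.34 (0 to 8.10) in the docetaxel efficient and 6.03 (0 to 14.9) in the untreated efficient library, and was listed at 0 in the untreated inhibited one. It was thus not highest in the docetaxel efficient library, and it was not called. Clec4g, a lectin gene next to Cd209a, was at 2.89 FPKM (0 to 7.26) in the docetaxel inhibited library and listed at 0 in the other 3.

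Of 20 listed ligands and signalling partners of DC-SIGN, 5 were above 0 in any library and none was called in any comparison. Rela, a subunit of the transcription factor NF-kappaB, was the one that reached 5 FPKM, at 14.3 (6.62 to 21.0) in the docetaxel inhibited, 19.96 (13.2 to 26.4) in the docetaxel efficient, 8.92 (4.13 to 14.0) in the untreated inhibited and 19.9 (12.5 to 27.2) in the untreated efficient library. The adhesion ligand gene Icam1 was at most 1.30 FPKM in each library.

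Retn and alpha globin, genes of other tissues, were also highest in the docetaxel efficient library. Of 11 adipocyte markers 3 were above 0, and their sum was 12.4 FPKM in the docetaxel inhibited, 429 in the docetaxel efficient, 11.6 in the untreated inhibited and 12.6 in the untreated efficient library, almost all of the high value being Retn. Cidea, a lipid droplet gene of fat cells, did not share that pattern, at 12.4 FPKM (2.57 to 20.5) in the docetaxel inhibited, 9.76 (2.56 to 16.6) in the docetaxel efficient, 11.6 (3.84 to 21.1) in the untreated inhibited and 2.07 (0 to 5.13) in the untreated efficient library. Adipoq, Plin1 and Fabp4 were listed at 0 in all 4. The erythroid list, nearly all alpha globin, summed to 428 FPKM in the docetaxel inhibited, 1768 in the docetaxel efficient, 936 in the untreated inhibited and 208 in the untreated efficient library. The untreated inhibited library thus had more alpha globin than the untreated efficient one, while their Cd209 sums of 19.7 and 17.1 FPKM overlapped. The part of fat or blood in the Cd209 values was not tested.

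Of 12 fibroblast and matrix genes 3 were above 0, with sums of 579 FPKM in the docetaxel inhibited, 515 in the docetaxel efficient, 371 in the untreated inhibited and 369 in the untreated efficient library, nearly all from the collagen gene Col1a2. Of 13 lymphatic and endothelial markers 3 were above 0, summing to between 0.734 and 3.69 FPKM, and of 15 lymphocyte markers 3 were, summing to at most 1.57 FPKM. Col1a2, the one gene of these 3 lists that reached 5 FPKM and could be compared, was not called in any comparison.

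Loci with a profile like that of Cd209f were sought among 685 loci that reached 5 FPKM in at least 1 library. Likeness was the Euclidean distance between log2(FPKM + 1) profiles over the 4 libraries, each centred on its mean. The nearest were Fam92b at 0.59, Stc2 at 0.76, Efemp1 at 0.82, Mtfp1 at 0.86 and Cldn4 at 0.87, beside a median distance of 2.46. Cd209a lay at 0.71 from Cd209f, Cd209g at 0.86, Cd209b at 1.23 and Cd209d at 2.87. Efemp1, which encodes the extracellular matrix protein fibulin-3, was the one of the 5 nearest loci with a value in every library. It was at 11.4 FPKM (4.40 to 19.1) in the docetaxel inhibited, 71.6 (51.9 to 89.1) in the docetaxel efficient, 18.3 (9.88 to 27.5) in the untreated inhibited and 27.2 (16.6 to 37.2) in the untreated efficient library. The other 4 were under 10 FPKM everywhere, each with 1 or more listed zeros, so their likeness rests on few fragments.

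**Figure D5:**
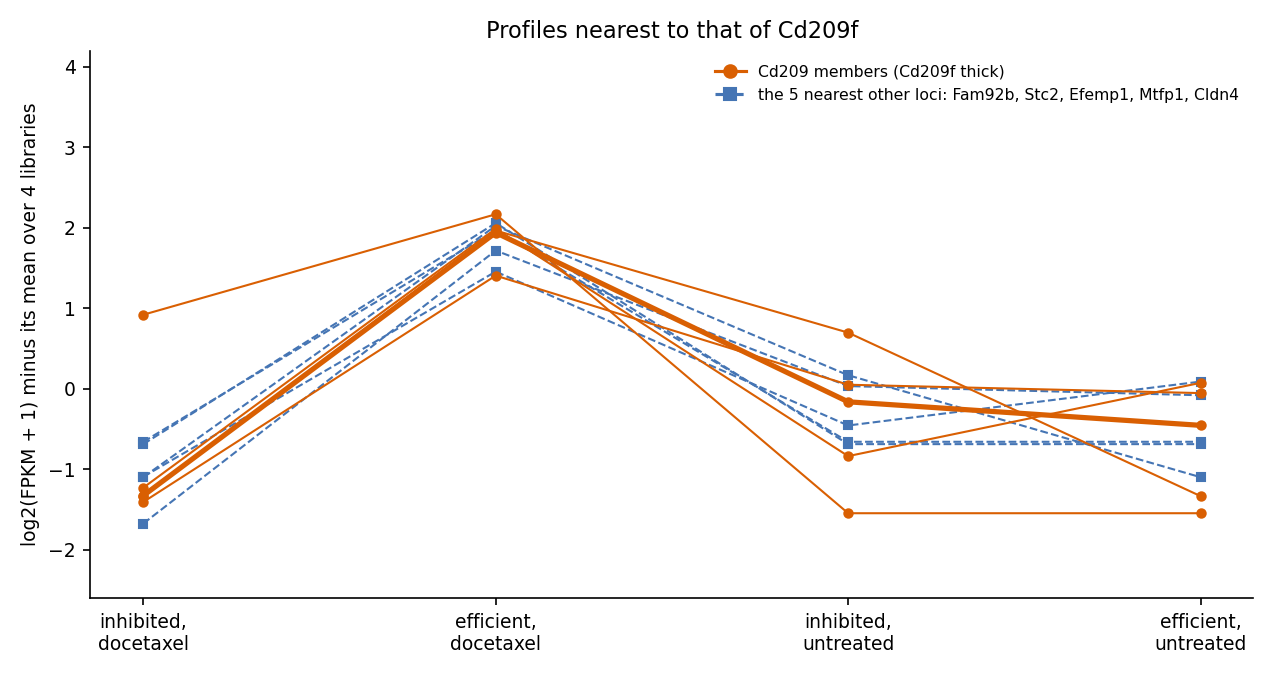
Profiles of the 5 Cd209 members and the 5 nearest other loci over the 4 libraries (x axis), as log2(FPKM + 1) minus the locus mean (y axis). All 10 profiles peak in the docetaxel efficient library, which for the 5 other loci follows from their choice by likeness to Cd209f. Cd209d is the one member that lies above its mean in the docetaxel inhibited library.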

How the data were processed

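RNA from 4 MDA-MB-231 xenograft tumours, 1 library per condition, was rRNA-depleted or mRNA-purified and sequenced on a MiSeq, per the labels' protocols. The submitters' processing notes name TopHat, Cufflinks and mm9, without versions. The authors deposited FPKM per locus with a lower bound, an upper bound and a status, per the file headers. Start positions were raised by 1. The 285 loci of status LOWDATA entered no comparison.

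Differences were taken as log2(FPKM + 1) and called by the rule given with the first comparison, applied to all loci. Intervals of differences and sums combine the upper arms of the deposited bounds in quadrature and cover counting error only. For Cd209f in the docetaxel efficient library the upper arm (56.2 to 73.8 FPKM) is shorter than the lower one (30.8 to 56.2). Intervals that use this value, those of the family sum included, are thus narrower than its lower arm would give. A member listed at 0 has bounds of 0 to 0 and adds no error to them. No test was made, because each group was 1 library. The fragment step was found from bounds that are whole multiples of it. Relative depth was the most common ratio of steps between libraries, which 193 loci shared within 0.5% in the docetaxel inhibited, 235 in the docetaxel efficient and 216 in the untreated inhibited library. The calling rule and the step were run on simulated data. For the step, the simulated bounds were made of whole steps. They rested on more fragments than the members whose fragments could be read had outside the docetaxel efficient library. The simulation therefore cannot show whether the step holds for the members.

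The members and lists were chosen with earlier results of these data known. The genes named were the members, other Cd209 loci, called neighbours within 1 Mb, the 5 nearest profiles (spans under 500 bp, olfactory, vomeronasal, microRNA, predicted and clone names left out) and at most 4 members per list at 5 FPKM or more. List members below that level or listed at 0 were named after their values were seen. Other settings were pseudocounts of 0.1 and 5, no minimum or 20 FPKM, median scaling, quantile normalization, no interval criterion and a 3-fold threshold. Sequences of the mouse genes were not used here. Python 3.11.15, numpy 2.4.6, pandas 2.3.3 and matplotlib 3.10.9 were used.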

Additional observations from a re-analysis of the deposited data

Results flagged for a closer look

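The docetaxel difference had opposite signs in inhibited and efficient tumours for 4 of the 5 members and for their sum. What share of all loci had opposite signs was not counted. Cd209g, Cd209a and Cd209b were under 5 FPKM in both inhibited libraries, so their signs there rest on very low values. The docetaxel difference in inhibited tumours minus that in efficient tumours, on the log2(FPKM + 1) scale, was -3.56 for Cd209f, -2.31 for Cd209g, -2.92 for Cd209a and -5.33 for Cd209b. For the family sum it was -3.35. These differences were not tested, since each condition was 1 library, and the docetaxel differences of inhibited tumours were themselves within their intervals. The values of Cd209a and Cd209b include listed zeros and give no size. For Cd209d both docetaxel values lay above untreated values listed at 0.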

How the results depend on the processing

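No paired analysis was possible because each condition was 1 library. The count of members called higher with docetaxel in efficient tumours was 2 as reported, 1 with a minimum of 20 FPKM, which leaves out Cd209d, and 5 without the interval criterion. Without that criterion 1 member was lower with docetaxel in inhibited tumours (0 as reported) and 5 were lower in inhibited than efficient tumours under docetaxel (3 as reported). The other counts stayed within 1.5 times under the settings run. Over these settings, and with each member left out in turn, the family log2 difference ranged from 2.23 to 2.76 for docetaxel in efficient tumours, from -1.44 to -0.21 in inhibited tumours, from -0.04 to 0.55 for inhibition in untreated tumours and from -3.65 to -2.80 under docetaxel. The difference of docetaxel differences ranged from -3.85 to -2.88. Scaling to neighbours on chromosome 8 and leaving out members were chosen after seeing the data. Of 100 log2 differences of single members under other pseudocounts and scalings, 89 stayed within their interval, 11 moved beyond it, all involving a listed 0, and 0 reversed. Another pseudocount cannot turn the sign of a difference, and neither can scaling against a listed 0, so many could not reverse. Reversals were counted among called differences only. Cd209d was listed at 0 in both untreated libraries, so its difference there could not move. Over all loci, 90% of calls were higher for docetaxel in efficient tumours, 73.1% after median scaling and 66.7% after quantile normalization. In inhibited tumours these shares were 68.6%, 38.7% and 45.5%. Depth limits these results as well as the lack of replicates: outside the docetaxel efficient library none of the 4 members whose fragments could be read rested on more than 6.12.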
